A study of Mus musculus with 30 samples.

Results

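The 9 adhesion genes described here in mouse lung and spleen are the endothelial selectins Sele and Selp, the selectin ligand Selplg, the endothelial counter-receptors Icam1, Icam2, Vcam1 and Madcam1, and the leukocyte integrin chains Itgal and Itgam. They were taken by symbol, and each had a single entry in both deposited tables, which makes 9 of 19470 entries in lung and 9 of 18845 in spleen. Messenger RNA had been sequenced from C57BL/6 mice 8 weeks old, either wild type or of a line labelled lincRNA-Cox2 mutant or a line labelled lincRNA-Cox2 knockout, after intraperitoneal lipopolysaccharide (LPS, a cell wall component of gram-negative bacteria) at 20 mg/kg for 6 h or with PBS. Each genotype and tissue had 3 LPS and 2 PBS libraries, 30 in all, and the study compared the genotypes within each treatment. LincRNA-Cox2 is a noncoding RNA transcribed beside Ptgs2, the cyclooxygenase 2 gene. The labels give no design for either allele, do not say whether the replicates are separate animals, and do not link a lung to a spleen.

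Leukocytes leave the blood in steps. Selectins on activated endothelium catch carbohydrate-bearing ligands on rolling leukocytes, and chemokine signals then switch leukocyte integrins to a form that holds firmly to immunoglobulin-family ligands on the vessel wall. P-selectin is stored in granules of endothelial cells and platelets, E-selectin is made anew after inflammatory stimulation, and the endothelial genes Sele, Icam1, Vcam1 and Madcam1 are known targets of NF-kB, a transcription factor activated by LPS.

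The available values were the authors' means of normalized counts for each group, with the authors' log2 folds and adjusted p-values for the genotype comparisons. No value of a single library and no test of LPS against PBS was used here, so differences between LPS and PBS are ratios of group means, and whether they exceed the spread between replicates cannot be stated. Library totals estimated from the steps between low means ran from 5.20 to 17.3 M reads in 6 lung groups and from 2.38 to 8.95 M in 5 spleen groups. The knocked-out RNA was measured at 30.2 with LPS and 34.8 with PBS in wild type lung and was listed at 0 in every mutant and knockout lung group; in spleen its means were 3.53 and 2.13 in wild type and at most 0.322 elsewhere. The groups also differed in sex-linked genes. In lung, Xist (the RNA of the inactive X chromosome) averaged 14.5 with LPS and 3660 with PBS in wild type, 4510 and 3300 in mutant, and 23.2 and 1910 in knockout. Ddx3y, a Y-linked gene, averaged 1150 and 294, 4.73 and 317, and 1130 and 447 in the same groups, and in spleen each gene differed between LPS and PBS in the same direction. Every ratio of LPS to PBS below is therefore also a ratio between groups of different Xist and Ddx3y level, and the part of this in the adhesion genes was not tested. Markers of neighbouring organs differed too: in spleen the median log2 ratio of LPS to PBS was -1.63, 6.26 and 4.50 for hepatocyte markers and 3.74, 0.31 and 1.71 for pancreatic acinar markers in wild type, mutant and knockout. In lung these medians were -0.18, 4.86 and 3.96, and -3.81, 0.22 and 1.45, and skeletal muscle markers summed to 2667 in knockout lung with PBS against 79.0 in wild type lung with PBS.

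In the mm10 assembly (GRCm38, GENCODE M21 annotation) the endothelial selectin genes lie close together on chromosome 1: Sele at chr1:164048234-164057677 and Selp at chr1:164115264-164150026, both on the plus strand and 57.6 kb apart. Sele lies 13.9 Mb from lincRNA-Cox2. Icam1 is at chr9:21015985-21028817, Madcam1 at chr10:79664559-79668537, Itgal at chr7:127296260-127335138 and Itgam at chr7:128062640-128118491, all on the plus strand. Selplg (chr5:113818536-113832644), Icam2 (chr11:106377656-106388075) and Vcam1 (chr3:116109949-116129688) are on the minus strand. Itgal and Itgam are 728 kb apart.

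The 250 bases before the RefSeq transcription start were available for 5 of the 9 genes (RefSeq, GRCm38.p6): Sele, Selp, Icam1, Madcam1 and Itgam. They were searched on both strands for GGNNNTTCC (reverse complement GGAANNNCC), a short form of the NF-kB recognition sequence, and for TATAAA, the TATA box. These motifs were chosen after the sequences had been read, and a match that fits both strands was counted once. The 4 endothelial promoters below each hold at least 1 match to the first motif, and they are shown because these genes differ in their response to LPS. Capitals mark the matches, all sequences are read 5′ to 3′ on the plus strand, and none of the windows overlaps an annotated exon. They cover chr1:164047984-164048233 (Sele), chr1:164115014-164115263 (Selp), chr9:21015690-21015939 (Icam1) and chr10:79664309-79664558 (Madcam1).
Sele: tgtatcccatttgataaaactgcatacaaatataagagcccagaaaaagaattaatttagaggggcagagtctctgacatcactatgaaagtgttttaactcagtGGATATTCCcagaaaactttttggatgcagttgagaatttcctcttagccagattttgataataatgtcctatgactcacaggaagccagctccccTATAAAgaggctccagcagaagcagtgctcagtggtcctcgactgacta
Selp: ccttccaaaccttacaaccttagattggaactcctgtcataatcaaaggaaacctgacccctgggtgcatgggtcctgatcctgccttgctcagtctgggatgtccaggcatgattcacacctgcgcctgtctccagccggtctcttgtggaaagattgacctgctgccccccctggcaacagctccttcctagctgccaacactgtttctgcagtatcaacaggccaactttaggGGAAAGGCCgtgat
Icam1: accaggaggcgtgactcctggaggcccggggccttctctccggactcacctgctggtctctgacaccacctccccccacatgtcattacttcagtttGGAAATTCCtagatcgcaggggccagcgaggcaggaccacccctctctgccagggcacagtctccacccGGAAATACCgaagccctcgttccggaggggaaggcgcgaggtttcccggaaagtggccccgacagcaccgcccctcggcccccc
Madcam1: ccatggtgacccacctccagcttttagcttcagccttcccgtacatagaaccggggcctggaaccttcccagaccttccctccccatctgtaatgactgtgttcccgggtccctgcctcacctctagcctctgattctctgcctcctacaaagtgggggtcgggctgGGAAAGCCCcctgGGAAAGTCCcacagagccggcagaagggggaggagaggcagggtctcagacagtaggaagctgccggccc
The Sele window has GGATATTCC from 145 to 137 bases before the start and TATAAA from 49 to 44 bases before it. The Icam1 window has GGAAATTCC from 153 to 145 bases and GGAAATACC from 84 to 76 bases before the start. The Madcam1 window has its pair of matches close together, GGAAAGCCC from 83 to 75 bases and GGAAAGTCC from 70 to 62 bases before the start. In the Selp window GGAAAGGCC runs from 14 to 6 bases before the start. The Itgam window, from chr7:128062390 to base 128062639, contains neither motif. Of 32851 promoter windows of the same length, 15.7% hold at least 1 match to GGNNNTTCC, 1.46% hold 2 or more, and 12.4% hold TATAAA. A match describes letters and does not show that a factor binds.

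In lung, 8 of the 9 genes reached a mean of 10 in at least 1 group, and all 8 had LPS group means on 1 side of the PBS group means: 7 were higher with LPS in each genotype and Icam2 was lower. The same filter gave non-overlapping LPS and PBS means for 71.8% of all genes in lung (35.4% higher and 36.4% lower with LPS), so the separation alone is common. Madcam1 did not pass, and its lung values rest on few reads. The sizes were less common. Among these 8 genes, 7 were at least 2-fold higher and 1 at least 2-fold lower in wild type, against 13.9% and 14.3% of all such genes. In mutant lung 6 were higher and 1 lower (all genes 15.5% and 16.0%), and in knockout lung 7 and 1 (16.9% and 17.7%). The median log2 ratio of the members past this filter was 2.11 in wild type, 2.63 in mutant and 2.16 in knockout, against -0.03, -0.03 and -0.01 over all genes; ratios were computed after adding 1 to each mean.

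In spleen the response was narrower. Of the 9 genes, 5 had LPS means apart from the PBS means in all genotypes, Sele, Selp, Selplg and Icam1 above and Icam2 below, against 61.7% of all genes (30.3% above and 31.4% below). With LPS, 4 of 9 genes exceeded PBS at least 2-fold in wild type spleen (Sele, Selp, Icam1 and Madcam1; all genes 13.5%) and 1 was at least 2-fold lower (Vcam1; all genes 14.8%). In mutant spleen 3 were higher and 0 lower (15.3% and 16.7%), and in knockout spleen also 3 and 0 (16.6% and 18.7%), in both cases Sele, Selp and Icam1. The median log2 ratio of the 9 genes was 0.36 in wild type, 0.33 in mutant and 0.38 in knockout, against 0.02, 0 and -0.02 over all genes. The LPS groups had larger sums of normalized counts than the PBS groups. Scaling the groups to equal sums lowered the log2 ratios by 0.36 to 0.50 in lung and by 0.39 to 0.46 in spleen, depending on the genotype and less for low means because of the added 1, and left 2 genes at least 2-fold higher in wild type spleen and Icam2 at least 2-fold lower in mutant and knockout spleen.

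**Figure D1:**
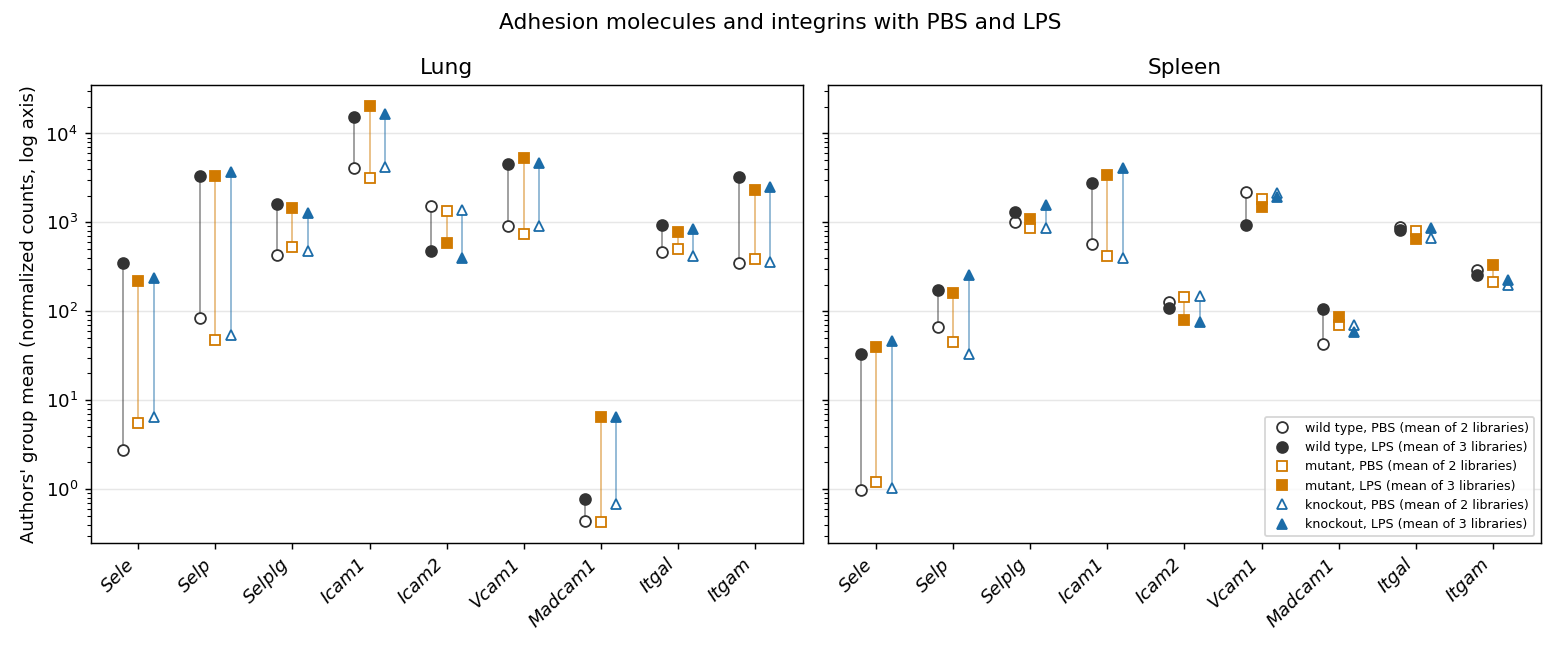
Group means of normalized counts, as deposited by the authors, for the 9 genes in lung (left) and spleen (right) on a log axis; open symbols are PBS means of 2 libraries and filled symbols LPS means of 3 libraries, by genotype, joined by a line. No spread is drawn because only group means were used. In lung the filled symbols lie above the open ones for 7 genes and below them for Icam2, and Madcam1 lies near the limit of counting; in spleen the longest lines are those of Sele, Selp and Icam1.

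Sele, E-selectin of activated endothelium, had the largest ratio of the 9 genes in wild type lung. Its mean was 351 with LPS and 2.75 with PBS in wild type, 222 and 5.54 in mutant, and 236 and 6.50 in knockout. The 3 PBS means rest on few reads, 5 in wild type, between 18 and 22 in mutant and 19 in knockout, so the folds are imprecise. LPS exceeded PBS 128-fold in wild type (95% counting interval 54.7 to 393), 40.1-fold in mutant (25.4 to 67.6) and 36.3-fold in knockout (23.3 to 60.3); these intervals cover counting error of the PBS reads only, and they overlap. On the log2 scale with 1 added, the ratios were 6.55, 5.09 and 4.98, and with 10 added they were 4.82, 3.90 and 3.90. Sele ranked 21 of 15041 genes by this ratio in wild type lung, 109 of 15092 in mutant and 112 of 15208 in knockout. In spleen Sele averaged 33.2 with LPS and 0.991 with PBS in wild type, 40.2 and 1.21 in mutant, and 46.6 and 1.04 in knockout. The spleen PBS means came from 4, 5 and 4 reads, and the folds were 33.5 (13.1 to 123), 33.2 (14.2 to 102) and 44.8 (17.5 to 164). The log2 ratios in spleen were 4.10, 4.22 and 4.54, and adding 10 in place of 1 gave 1.97, 2.16 and 2.36.

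Selp, P-selectin of endothelium and platelets, was abundant in LPS lung and scarce in PBS lung. Its lung means were 3350 and 84.0 in wild type, 3300 and 47.5 in mutant, and 3640 and 54.4 in knockout (LPS, then PBS). The log2 ratios were 5.30, 6.09 and 6.04, so that Selp passed Sele in the mutant and knockout lungs. The 3 LPS means of Selp lay close together, and the ratios differed mainly through the PBS means. In spleen Selp averaged 173 and 66.6 in wild type, 160 and 45.6 in mutant, and 258 and 32.9 in knockout. The spleen log2 ratios of 1.36, 1.79 and 2.93 were smaller than those in lung in each genotype; with equal sums the wild type value was 0.98, under 2-fold. Because Selp is also a platelet gene, platelet markers are given beside it: in lung 9, 8 and 10 of 10 were at least 2-fold higher with LPS in wild type, mutant and knockout, with summed means of 2344, 2127 and 3054 against 499, 702 and 594 with PBS. Pf4, a platelet chemokine, had lung log2 ratios of 1.47, 1.43 and 1.64. The lung medians of the platelet list were 2.12, 1.33 and 1.93, so Pf4 lay below them in wild type and knockout and above in mutant. Relative to Pf4, Selp was higher with LPS by 3.83, 4.65 and 4.40 on the log2 scale. The part of platelets in the Selp values was not tested. Relative to Cdh5, the cadherin of endothelial junctions, it was higher by 4.35, 5.30 and 5.60. Cdh5 was itself higher with LPS in lung, with log2 ratios of 0.95, 0.79 and 0.44. Most endothelial markers went the other way, with 9, 8 and 9 of 15 at least 2-fold lower. In spleen platelet markers had medians of -1.01, 0.13 and -0.08.

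Selplg encodes the main leukocyte ligand of P-selectin. In lung it averaged 1620 with LPS and 434 with PBS in wild type, 1470 and 526 in mutant, and 1280 and 473 in knockout, with log2 ratios of 1.90, 1.48 and 1.43 (0.98 in mutant with equal sums). In spleen the means were 1300 and 1010, 1080 and 860, and 1560 and 865, and the log2 ratios were 0.36, 0.33 and 0.85. The spleen LPS means all lay above the PBS means, but under 2-fold, and with equal sums the ratio was -0.03 in wild type and -0.11 in mutant.

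Icam1, a ligand of the integrins that contain Itgal or Itgam, was at least 2-fold higher with LPS in every genotype of both tissues. In lung it averaged 15400 and 4140 in wild type, 20500 and 3190 in mutant, and 16600 and 4150 in knockout, with log2 ratios of 1.89, 2.68 and 2.00. In spleen it averaged 2750 and 569, 3420 and 415, and 4040 and 402, with log2 ratios of 2.27, 3.04 and 3.33. PBS lung already carried much Icam1, and which lung cells carried it was not tested. Per kb of the longest protein-coding transcript, wild type PBS lung had a mean of 1633 for Icam1, the highest of the 9 genes, against 1193 for Icam2, 266 for Vcam1, 24.4 for Selp and 0.944 for Sele. With LPS the order in wild type lung was Icam1 (6075 per kb), Vcam1 (1323), Selp (974), Selplg (873), Itgam (701), Icam2 (367), Itgal (179), Sele (121) and Madcam1 (0.534). Sele thus had the largest ratio but, of the genes past the filter, the lowest level per kb in LPS lung. Whether neighbours in this order differ beyond their spread cannot be told from group means.

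Icam2, a ligand of the Itgal integrin that endothelium makes without stimulation, was the gene that was lower with LPS in both tissues. In lung its means were 471 with LPS and 1530 with PBS in wild type, 588 and 1360 in mutant, and 394 and 1370 in knockout, and the log2 ratios were -1.70, -1.21 and -1.80. In spleen the means were 108 and 128, 79.7 and 146, and 75.0 and 147, with log2 ratios of -0.24, -0.87 and -0.96. Endothelial markers were lower as a list in LPS lung: 9, 8 and 9 of 15 were at least 2-fold lower in wild type, mutant and knockout, with medians of -1.16, -1.35 and -1.75, and none was at 0. The endothelial sum was 37411, 39890 and 35141 with LPS against 49161, 52150 and 57113 with PBS. The list did not move as a block. Kdr, a receptor for vascular endothelial growth factor, had lung log2 ratios of -2.15, -2.63 and -3.59, and Cdh5 of 0.95, 0.79 and 0.44. In bulk tissue, fewer cells of a type and less RNA per cell cannot be told apart.

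Vcam1, the ligand of Itga4-containing integrins, differed in direction between the tissues. In lung it averaged 4590 and 922 in wild type, 5300 and 731 in mutant, and 4620 and 918 in knockout, with log2 ratios of 2.31, 2.86 and 2.33. In spleen it averaged 929 and 2190 in wild type, 1480 and 1820 in mutant, and 1910 and 2130 in knockout. The spleen log2 ratios were -1.24, -0.30 and -0.16, so only wild type was at least 2-fold lower, and over genotypes the LPS and PBS means overlapped. In PBS spleen Vcam1 had the highest level per kb of the 9 genes in each genotype (631, 525 and 614), and with LPS Icam1 took that place (1085, 1349 and 1594). Vcam1 in spleen is also known from macrophages and stromal cells. Stromal markers had spleen medians of -1.22, -0.27 and -0.65, with sums of 5293, 5923 and 6736 with LPS and 9246, 6493 and 6226 with PBS. Monocyte and macrophage markers had spleen medians of -0.67, -0.15 and 0.01, with sums of 5970, 8568 and 5905 against 6440, 5175 and 5489. The part of these lists in the Vcam1 values was not tested.

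Madcam1, the addressin for gut-homing lymphocytes, is also made by sinus-lining cells of the splenic marginal zone. In spleen it averaged 107 with LPS and 43.3 with PBS in wild type, 87.1 and 69.8 in mutant, and 58.8 and 69.7 in knockout. The log2 ratios were 1.29, 0.32 and -0.24, and with equal sums 0.90 in wild type and -0.12 in mutant, so neither the size in wild type nor the sign in mutant was kept. In lung Madcam1 was near the limit of counting. Its LPS means were 0.767 in wild type (3 reads), 6.46 in mutant (16 to 19 reads) and 6.52 in knockout (11 to 16 reads), and its PBS means were 0.441, 0.430 and 0.677 (1, 2 and 2 reads). The 95% counting intervals with LPS were 0.158 to 2.24, 3.69 to 10.5 and 3.25 to 11.7. In wild type lung no response was detectable, and the LPS interval lay below those of mutant and knockout. Estimated library totals with LPS in lung were 8.17 to 13.0 M reads in wild type and 5.20 to 8.62 M in knockout. In mutant and knockout lung the log2 ratios of 2.38 and 2.16 shrank to 0.66 and 0.63 when 10 was added in place of 1. Adding 10 to means this low shrinks any ratio, so it does not show whether there was a response. The 95% counting intervals with PBS were 0.0521 to 1.55 in mutant and 0.0820 to 2.45 in knockout, below those with LPS. These intervals leave out the spread between libraries.

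**Figure D2:**
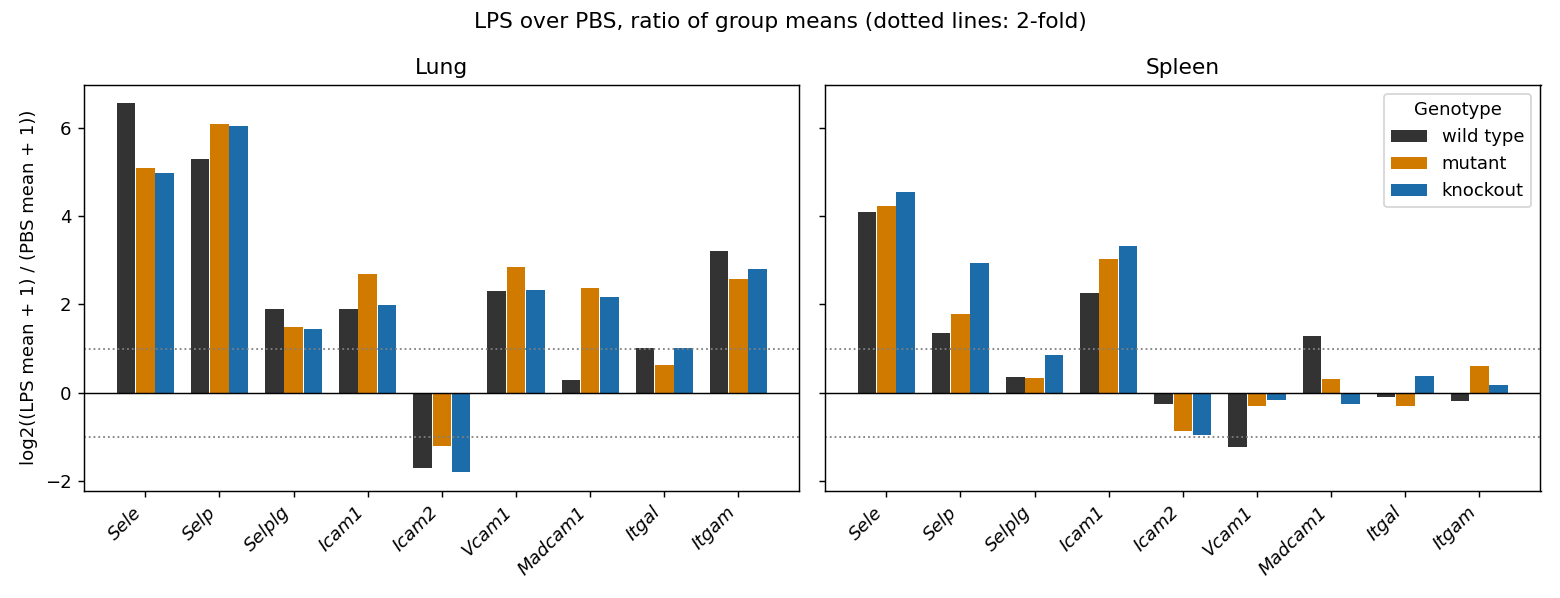
Log2 ratio of the LPS group mean to the PBS group mean, each plus 1, for the 9 genes in lung (left) and spleen (right); bars are coloured by genotype, dotted lines mark 2-fold, and no error is drawn because only group means were used. Sele and Selp reach 4.98 to 6.55 in lung, Icam2 lies below 0 in both tissues, and Vcam1 lies above 0 in lung and below 0 in spleen.

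Itgam, the alpha chain that pairs with the Itgb2 product in the complement receptor of neutrophils and monocytes, was much higher in LPS lung. Its means were 3280 and 351 in wild type, 2340 and 389 in mutant, and 2510 and 356 in knockout, with log2 ratios of 3.22, 2.59 and 2.81. In spleen the means were 254 and 289, 332 and 216, and 225 and 199, the LPS and PBS groups overlapped, and the log2 ratios of -0.19, 0.62 and 0.18 were under 2-fold (-0.28 in knockout with equal sums). Neutrophil markers moved with Itgam in lung: 11, 10 and 10 of 11 were at least 2-fold higher in wild type, mutant and knockout, with medians of 2.96, 3.13 and 3.61 and sums of 29133, 31816 and 31733 with LPS against 3130, 3522 and 2821 with PBS. The neutrophil gene Csf3r, receptor of a granulocyte growth factor, had lung log2 ratios of 1.96, 1.16 and 1.78. Relative to Csf3r, Itgam was higher by 1.26, 1.43 and 1.03. Csf3r lay below the median of the neutrophil markers in each genotype. The Itgam ratio lay above that median in wild type and below it in mutant and knockout. Monocyte and macrophage markers had lung medians of -0.22, -0.22 and 0.42, with 2 at least 2-fold higher and 2 at least 2-fold lower in each genotype. In spleen neutrophil markers had medians of 0.09, 2.19 and 0.34, and the mutant was also the genotype with the highest spleen ratio of Itgam. How far cell numbers account for the Itgam values was not tested.

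Itgal, the alpha chain of a leukocyte integrin that binds Icam1 and Icam2, had a small ratio in lung. It averaged 937 and 461 in wild type, 774 and 499 in mutant, and 846 and 418 in knockout. The log2 ratios were 1.02, 0.63 and 1.02; with equal sums they were 0.66 in wild type and 0.60 in knockout, under 2-fold. In spleen it averaged 820 and 878, 657 and 806, and 873 and 671, with overlapping groups and log2 ratios of -0.10, -0.29 and 0.38 (-0.08 in knockout with equal sums). T cell markers were lower in LPS spleen over the same groups: 4, 8 and 8 of 9 were at least 2-fold lower, with medians of -0.90, -1.61 and -1.87 and sums of 1832, 1164 and 1017 against 2622, 3204 and 3353. In lung T cell markers had medians of -1.16, -0.46 and -0.43, and 5, 2 and 2 of 9 were at least 2-fold lower. Natural killer markers had lung medians of 1.17, 0.71 and 0.95, with 4 of 8 at least 2-fold higher in each genotype and sums of 1924, 3421 and 2490 with LPS against 436, 751 and 602 with PBS. Relative to Cd3e, a chain of the T cell receptor complex, spleen Itgal was higher with LPS by 0.31, 1.17 and 2.25 on the log2 scale. B cell markers had spleen medians of -0.43, -1.84 and -1.54. No marker of the platelet, endothelial, stromal, macrophage, neutrophil, T cell, B cell or natural killer lists was listed at 0 in any group, and their part in the Itgal values was not tested. Itgb2, the beta chain shared by both integrins, averaged 1750 and 718, 1630 and 724, and 1550 and 563 in lung, with log2 ratios of 1.28, 1.17 and 1.46. Relative to this shared chain, Itgam was higher with LPS in lung by 1.94, 1.42 and 1.35, while Itgal was lower by 0.26, 0.54 and 0.44 on the log2 scale. In spleen Itgb2 averaged 573 and 1080, 712 and 1010, and 687 and 975, with log2 ratios of -0.91, -0.50 and -0.50.

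Over the 12 group means of both tissues, centred within tissue on the log2 scale, Selp and Selplg had the most alike patterns among the 9 genes (Pearson r 0.97), followed by Sele with Icam1 at 0.95 and Selp with Itgam at 0.94. Icam1 and Vcam1 had an r of 0.43, and Icam2 ran opposite to the other 8 genes, with r from -0.65 to -0.96. These values describe 12 means that share the contrast between LPS and PBS, which raises r for any pair that responds. Among 9199 genes with an overall mean of at least 50 in both tables, the closest to Sele were Nos2 (r 0.996), Tnfaip3 (0.994) and Nfkbia (0.993). The closest to Selp were Msr1, Pyhin1 and Ninj1 (0.995, 0.995 and 0.993), and to Icam1 they were Ehd1, Psmd7 and Asap3 (0.997, 0.997 and 0.996). Selplg was closest to Picalm, Top1 and Ier5 (each 0.986), and Icam2 to Cxx1a, Mfng and Cxx1b (0.983, 0.980 and 0.974). Vcam1 was closest to Ubash3b, Cap1 and Dll1 (0.982, 0.979 and 0.974), and Madcam1 to Sfn, Stoml1 and Ssh1 (0.946, 0.921 and 0.913). Every r of Madcam1, including the -0.65 with Icam2, uses lung means near the limit of counting. Its overall mean in lung was 2.96, under the 50 asked of the ranked genes. Itgal was closest to Trappc11, Ms4a6b and Snx1 (0.976, 0.975 and 0.974), and Itgam to Itgb3, Lcp2 and Nfe2 (0.993, 0.986 and 0.985).

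The remaining genes of the pathway were described in 5 lists. Counts at least 2-fold higher and lower with LPS are given for wild type, mutant and knockout in that order. Of 7 selectin ligand genes past the filter, 2, 1 and 1 were higher and 1, 1 and 2 lower in lung, and 0, 1 and 1 higher and 1, 0 and 1 lower in spleen. Cd44, a hyaluronan receptor that can carry selectin ligands, had lung ratios of 2.10, 2.58 and 2.44. Emcn and Podxl are sialomucins of endothelium. Emcn had lung ratios of -1.64, -1.58 and -2.56. Podxl and Emcn had spleen ratios of -1.12, -0.64 and -0.65, and of -0.92, 0.78 and 0.02. Of the 10 or 11 enzymes that build selectin ligands past the filter, 1 was higher and 1 lower in lung in each genotype, and 0, 2 and 1 were higher and 1, 3 and 2 lower in spleen. The pair in wild type lung was Fut4, a fucosyltransferase (1.37, 1.62 and 1.47), and Chst2, a sulfotransferase (-2.69, -2.99 and -2.86). In spleen Fut4 had ratios of -1.65, -1.93 and -0.20, and C1galt1c1, a chaperone of O-glycan synthesis, of -0.996, -0.38 and 0.26. Of 14 other integrin subunits in lung, 4, 5 and 4 were higher and 2, 2 and 3 lower, and of 15 in spleen, 1, 2 and 3 were higher and 5, 5 and 4 lower. Itgb3 and Itga2b, the chains of the platelet fibrinogen receptor, had lung ratios of 2.23, 1.91 and 1.87, and of 2.11, 1.85 and 2.75. Itgae and Itgax, found on mucosal lymphocytes and dendritic cells, had spleen ratios of -2.17, -2.91 and -3.27, and of -1.96, -2.12 and -2.51. Itgax lies 11.1 kb beyond Itgam, and in lung it averaged 344 and 465 in wild type, 439 and 405 in mutant, and 402 and 323 in knockout (log2 ratios -0.43, 0.12 and 0.31).

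Of 12 genes of integrin activation, 6, 5 and 6 were higher and 2, 1 and 1 lower in lung, and 0, 0 and 1 higher and 2, 3 and 3 lower in spleen. The adaptor Fyb and the exchange factor Vav1 had lung ratios of 2.16, 1.92 and 2.20, and of 1.72, 1.82 and 2.11. Rassf5 and Rasgrp2, which act around the small GTPase Rap, had spleen ratios of -1.18, -1.62 and -1.50, and of -1.04, -2.54 and -3.20. Of 15, 16 and 15 genes of junctions and transmigration in lung, 2, 5 and 3 were higher and 0, 3 and 4 lower, and of 14 in spleen, 1, 3 and 3 were higher and 6, 2 and 4 lower. Amica1, a junctional adhesion partner on leukocytes, had lung ratios of 2.61, 2.12 and 2.58, and Ceacam1, a carcinoembryonic antigen family adhesion molecule, of 1.48, 1.35 and 0.75. In spleen Ceacam1 had ratios of -2.06, -1.53 and -1.93, and Cd99l2 of -1.78, -1.76 and -1.62. The medians of the 5 lists in lung ran from 0.10 to 0.90 in wild type, from -0.07 to 0.71 in mutant and from -0.15 to 0.89 in knockout, below the median of the members in each genotype. In spleen they ran from -0.61 to -0.45, from -0.49 to 0.30 and from -0.62 to 0.10. Rapid NF-kB target genes, a list that holds none of the 9 genes, had medians of 3.48, 3.90 and 3.45 in lung and 2.00, 2.62 and 2.46 in spleen.

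**Figure D3:**
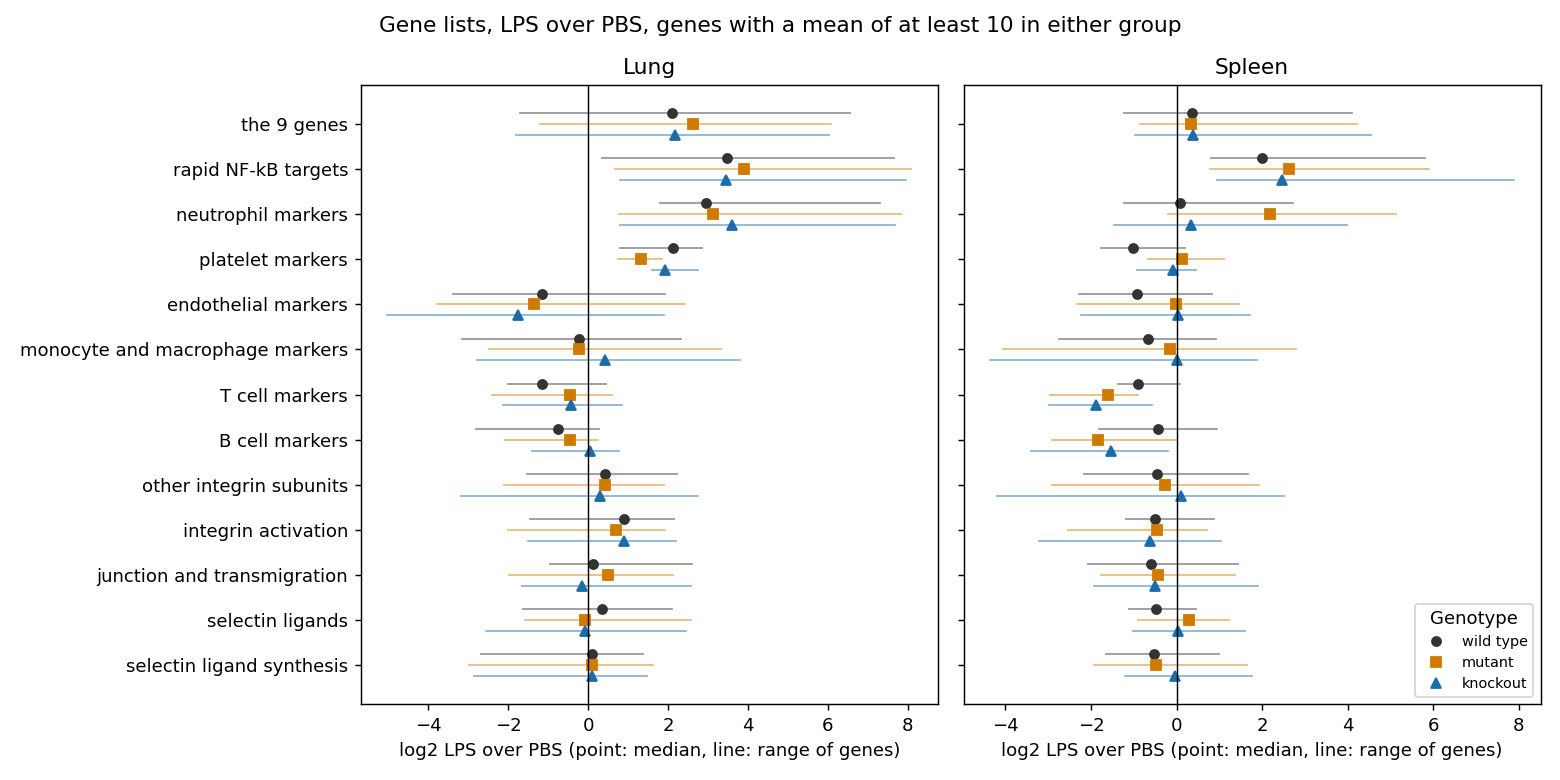
Median (symbol) and range (line) of the log2 ratio of LPS to PBS group means over the genes of each list that reached a mean of 10 with LPS or PBS, in lung (left) and spleen (right), by genotype. In lung the median of the 8 members that reached this mean lies between those of the NF-kB targets and of the 5 pathway lists. In spleen the median of the 9 genes also lies between them, at 0.36, 0.33 and 0.38 in wild type, mutant and knockout.

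The ratio of LPS to PBS was also set against that of wild type. A difference of at least 1 on the log2 scale was found in lung for 1 of the 8 genes past the filter, Sele, with -1.46 in mutant and -1.57 in knockout; of all genes, 5.20% and 7.18% differed this far in either direction. Both differences use the same wild type groups, whose PBS mean of Sele rests on 5 reads. In spleen 0 of 9 genes differed this far in mutant (all genes 12.9%), and 4 of 9 in knockout (all genes 19.4%). These 4 were Selp with 1.57, Vcam1 with 1.08, Icam1 with 1.05 and Madcam1 with -1.53. With 10 added in place of 1, the Sele differences in lung were -0.92 and -0.93, under the limit. With equal sums, Icam1 in knockout spleen was at 0.98, under the limit, and Madcam1 in mutant spleen at -1.02, past it. No test of these differences could be made from group means.

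None of the 9 genes was called in any comparison between genotypes, in either tissue, with LPS or PBS, at an adjusted p under 0.05 in the authors' deposited table, nor at an adjusted p under 0.1. Few genes were called at all. Shares are of the genes given an adjusted p in that comparison. In lung with LPS, mutant over wild type had 0.0715% called at 0.05, knockout over wild type 0.441% and knockout over mutant 0.243%. At 0.1 the shares were 0.0954%, 0.766% and 0.512%. In lung with PBS the same shares were 0.00524%, 0.0421% and 0.0523% at 0.05, and 0.00524%, 0.0474% and 0.0523% at 0.1. In spleen with LPS they were 0.00545%, 0.0241% and 0.177% at 0.05, and 0.00545%, 0.133% and 0.371% at 0.1. In spleen with PBS they were 0%, 0.160% and 0% at 0.05, and 0%, 0.384% and 0% at 0.1. There, an adjusted p was given to only 3124 genes in knockout over wild type. Mutant over wild type gave it to 18357 genes and knockout over mutant to 18185. An adjusted p was given for 101 of the 108 pairs of gene and comparison. The other 7 were Madcam1 in knockout lung with LPS against either genotype, and Sele, Selp, Icam2, Madcam1 and Itgam in knockout over wild type spleen with PBS. Comparisons within a tissue and treatment share their groups. With LPS, mutant over wild type and knockout over mutant also set groups of different Xist and Ddx3y level against each other in both tissues, and the part of this in the folds was not tested.

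The smallest adjusted p of the 9 genes in the authors' deposited table was 0.416, for Selplg in knockout over mutant spleen with LPS, with a log2 fold of 0.52. For Sele in lung with LPS the authors' deposited table gave a log2 fold of -0.56 in knockout over wild type (adjusted p 0.424) and of -0.65 in mutant over wild type (adjusted p 0.837). With PBS the direction was the opposite: the authors' deposited table gave 0.78 and 0.56, each with an adjusted p of 1. For Vcam1 in spleen with LPS the authors' deposited table gave 0.90 in knockout over wild type (adjusted p 0.622). For Madcam1 the authors' deposited table gave -0.77 in the same comparison (adjusted p 0.628), for Icam1 0.52 (adjusted p 0.666) and for Selp 0.51 (adjusted p 0.762). In lung with LPS, Madcam1 had log2 folds of 1.93 in mutant over wild type (adjusted p 0.966) and 1.90 in knockout over wild type in the authors' deposited table, the largest of the 9 genes, from the few reads given above. For the integrin chains in lung with LPS, the authors' deposited table gave -0.46 and -0.36 for Itgam in mutant and knockout over wild type (adjusted p 0.972 and 0.822), and -0.27 and -0.14 for Itgal (adjusted p 0.972 and 0.883). Across the 12 comparisons, the median log2 fold of the 9 genes in the authors' deposited table ran from -0.22 to 0.26. Over the 5 pathway lists, with 62 genes in each tissue and 695 pairs of gene and comparison with an adjusted p, 0 were called higher and 0 lower in the authors' deposited table. Since replicates may not come from different animals, these p-values measure only the spread between libraries, which may be technical. The PBS group means held both Xist and Ddx3y (3660 and 294 in wild type lung), whereas each LPS group was low in either Xist or Ddx3y. Whether libraries within a PBS group differ in sex, and how far this enters their spread, was not tested. With 2 or 3 libraries a group and no spread given, a difference that was not called is not shown to be absent.

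**Figure D4:**
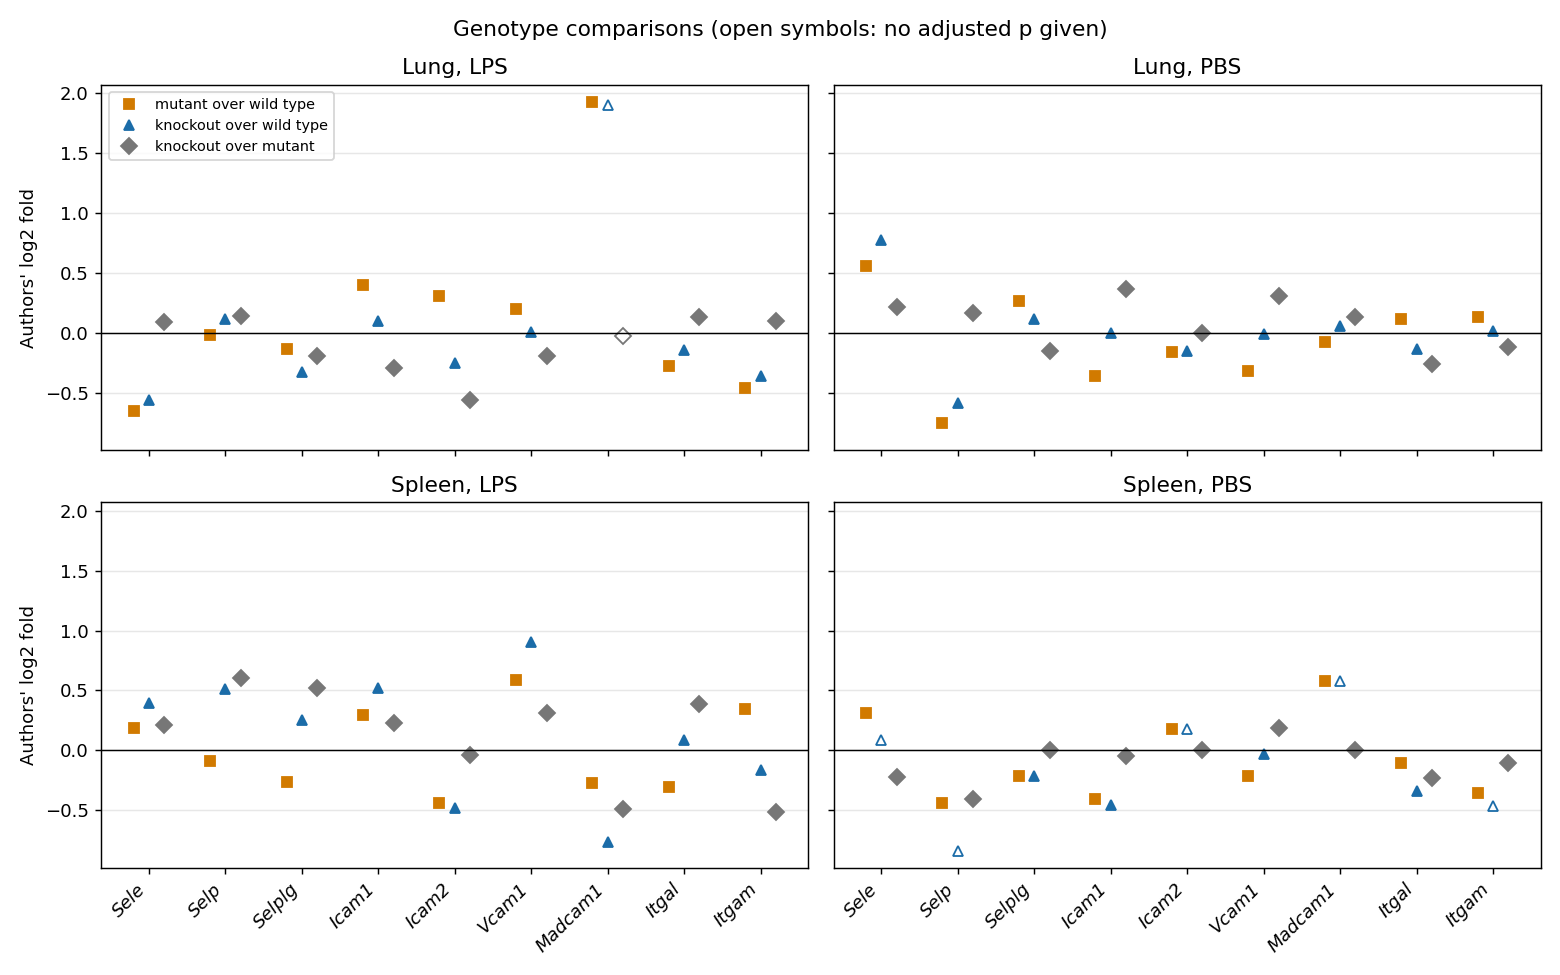
Log2 folds of the authors' deposited table for the 9 genes in the 3 genotype comparisons, in lung (top) and spleen (bottom), with LPS (left) and PBS (right); open symbols have no adjusted p, and no error is given in the table. Apart from Madcam1 in lung with LPS, at 1.90 and 1.93, the folds lie between -0.84 and 0.90, and no filled symbol has an adjusted p under 0.05.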

How the data were processed

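Messenger RNA of lung and spleen was sequenced in 30 libraries, 15 per tissue, 3 with LPS and 2 with PBS per genotype. STAR 2.5.3a, Bowtie2, SAMtools, bedtools and DESeq2 with the mm10 genome are named in the submitters' processing notes, without order or settings. Per the file headers, the authors deposited group means, a normalized signal (counts divided by size factors), log2 folds, adjusted p-values and a call score for each genotype comparison; adjusted p-values were read as a score because broken lines held other values. Per-library values and unadjusted p-values were not used here, so the authors' comparisons replaced fits on counts. Of 19476 lung and 18850 spleen lines, 6 and 5 were broken and left out. Each tissue was normalized separately.

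For LPS against PBS, 1 was added to each group mean and the log2 ratio taken; genes counted where the LPS or the PBS mean reached 10, and 2-fold was the limit. Reads behind low means were recovered from their smallest steps (tolerance 0.5%), and intervals cover counting error only. Strand use in counting is not given in the sources used here. Both steps were tested on simulated data. For the reads, the simulated size factors did not reach the largest estimated in mutant lung with PBS, 2.33. Nor did they reach the largest in wild type, mutant and knockout spleen with PBS, 2.33, 2.07 and 2.51. The Sele reads given for these groups rest on settings outside the simulation. The simulation also held no pair as close as 1.44 and 1.48, estimated in knockout lung with PBS. The members, lists and limits were chosen with earlier results of these data known. The text names all members, checks of genotype and sex, per pathway list the 2 genes with the largest wild type ratio in each tissue, Itgb2, defining markers, and the 3 genes most alike each member. A gene that this rule also names is not reported here. Alternatives were other pseudocounts, limits, filters and scalings. Python 3.11.15, pandas 2.3.3 and numpy 2.4.6 were used.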

Additional observations from a re-analysis of the deposited data

How the results depend on the processing

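No member changed the sign of a 2-fold ratio under another pseudocount, filter or scaling. Signs that turned belonged to ratios under 2-fold, printed beside them, and to genotype folds near 0. With a limit of 4-fold, 4 members were higher and 0 lower in wild type lung, 0 lower in mutant lung, 4 higher and 0 lower in knockout lung, and 2 higher and 0 lower in wild type spleen. With a limit of 1.5-fold, 1 member was lower in mutant spleen and 1 in knockout spleen. With groups scaled to equal sums, 2 were higher in wild type spleen and 1 was lower in each of mutant and knockout spleen; the LPS sums were larger, which sets the shift. The count of members whose ratio differed from wild type by at least 1 (log2) went to 0 in mutant and knockout lung with a pseudocount of 10, and from 0 to 1 in mutant spleen with equal sums. Leaving out each replicate was not run, since only group means were used. Taking another entry of a repeated symbol gave nothing to compare, since each member had 1 entry. No paired analysis was possible because the columns are group means and carry no replicate numbers. Depth limits Sele with PBS and Madcam1 in lung, which rest on few reads.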
